A study of Caenorhabditis elegans with 68 samples.

Results

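The genes described here are 37 protein-coding genes of the nematode Caenorhabditis elegans that carried only a sequence name in the deposited table, such as F55G11.2, and whose transcripts were lower in larvae of salt-exposed mothers of 1 strain. They were selected on their measured levels in mir-85(gcp109) larvae, by 3 criteria. The mean of log2(TPM + 1) at a maternal exposure of 300 mM NaCl lay at least 1 below that at 50 mM, every 300 mM library lay below every 50 mM library, and the mean at 50 mM was at least 5 TPM. TPM give a transcript's share of a library, corrected for its length. F08G5.6 and T24B8.5 were left out by the same rule. The table held 30470 lines, of which 10818 were protein-coding genes with sequence names, and 4459 of these reached the level criterion. All values of the gcp109 comparison chose the genes and are given as a description. The tests below compare the other strains, which the choice did not use. In 1 fit over all libraries, those of gcp109 also entered the estimate of the spread. All 37 IDs matched the Ensembl annotation of the assembly WBcel235, in which 5 of them now carry a symbol.

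The study sequenced RNA of freshly hatched first-stage (L1) larvae whose mothers had been exposed to 50 or 300 mM NaCl, and 48 libraries in 14 groups were used here. Libraries of 1 experiment are called a set. Set D compared wild-type N2 worms (here WT) with the mutant mir-85(n4117), in 2 libraries for each group. Set E came from strain MHE324 and held larvae of heterozygous mothers, in 3 libraries for each group. F1het larvae carried mir-85(n4117) over the balancer mIn1, itself marked with mIs14 and dpy-10(e128), and F1KO larvae were homozygous for n4117. Set F consisted of larvae of the allele gcp109, which lacks the 3p sequence of the microRNA mir-85, in 4 libraries for each group. Set G compared other N2 wild-type libraries (here N2) with hrg-1(gcp100), a mutation of the site in hrg-1 that pairs with the seed of mir-85, in 5 libraries for each group. A mIn1 balancer is an inversion that keeps a mutation heterozygous and marks its carriers. It is present in the mothers of both genotypes of set E and in no other set. The labels name 1 strain for each mutant, MT12999 for n4117 in set D, MHE339 for gcp109 and MHE310 for gcp100. Whole larvae were sequenced, so fewer cells of a type and less RNA per cell cannot be told apart. Libraries of a group are biological replicates per the labels. Nothing says that they came from separate cultures, and the p-values cover only the spread between these samples, which may be technical.

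A sequence name gives the cosmid or clone a gene was found on and its number there, and says nothing of its function. A mother's salt exposure is known to change the physiology of her offspring in C. elegans, which as larvae meet high salt by making glycerol and by changing the genes of the gut and the epidermis. Genes of the larval gut that respond to pathogens are known to respond to other stresses too. For 32 of the 37 genes the reference tables give no symbol, and no role is stated for them here.

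Larval tissue markers were present in all groups: of the intestine, pharynx, body wall muscle and neuron lists, all markers were above 0 in every group but 1 pharynx marker in gcp100 at 300 mM. Some libraries of set G stood apart from the others. The summed level of 30 sperm markers was 2.88 to 7.64 TPM in the N2 libraries at 50 mM and 23.2 to 4628 TPM in those at 300 mM, and it was 2.79 to 4.71 and 4.93 to 1461 TPM in gcp100. No sperm marker was listed at 0 throughout N2 or gcp100 at 300 mM, against 19 and 22 of the 30 at 50 mM. Germline and early embryo markers reached 1193 and 2256 TPM in replicate 3 of N2 at 300 mM. In gcp109 the sperm sum was 2.25 to 4.65 TPM at 50 mM and 3.37 to 108.8 TPM at 300 mM, the highest in replicate 1. Germline markers there summed to 5.53 to 25.4 and 20.2 to 102 TPM. Libraries above 10 times the set G median of 6.89 TPM are called sperm-rich, a limit applied to set G alone. Replicate 5 of N2 and replicates 3 and 5 of gcp100 at 300 mM held fewer genes of at least 1 TPM (12078, 10487 and 11657) than the other libraries of those 2 groups, which held 13924 to 15041. Correlations between replicates of the 300 mM groups of set G went down to r = 0.803, and the lowest in the groups of the other sets was 0.965. By these measures 5 libraries are doubtful, which are replicates 3 and 5 of N2 and 1, 3 and 5 of gcp100, all at 300 mM. The calls of set G that end without them are named beside the counts, and the gene values below include them.

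In gcp109 the largest fall was that of F56A4.2, with 25.9, 25.7, 39.7 and 56.8 TPM at 50 mM and 5.64, 1.51, 2.68 and 3.92 TPM at 300 mM, a log2 difference of -3.11. F56A4.2 is now named clec-209, a C-type lectin, a family of sugar-binding proteins. In gcp109 it cannot be told from another line that the table lists as clec-209, since both lines hold the same values in every library of that strain. F55G11.2 followed with -2.77 and F55G11.8 with -2.37. Over the 37 genes the log2 differences ran from -3.11 to -1.03 with a median of -1.34. Just inside the limit stood DC2.5 (-1.03), Y8A9A.2 (-1.04) and Y25C1A.13 (-1.07), and just outside it K02A11.4 (-0.98) and the pair C01B4.7 and Y19D10A.4 (-0.98 each), whose values are identical. Just inside the level limit stood C32H11.1 with a mean of 5.16 TPM at 50 mM, and just outside it C17H12.6 with 4.98 TPM. Of the genes that met the other criteria, 8 had overlapping groups and 5 were too low. The gcp109 fit called 27 of the 37 lower, where 0.695% of all genes tested were called lower and 4.18% had groups that did not overlap in this direction, which the choice of the genes fixes.

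**Figure D1:**
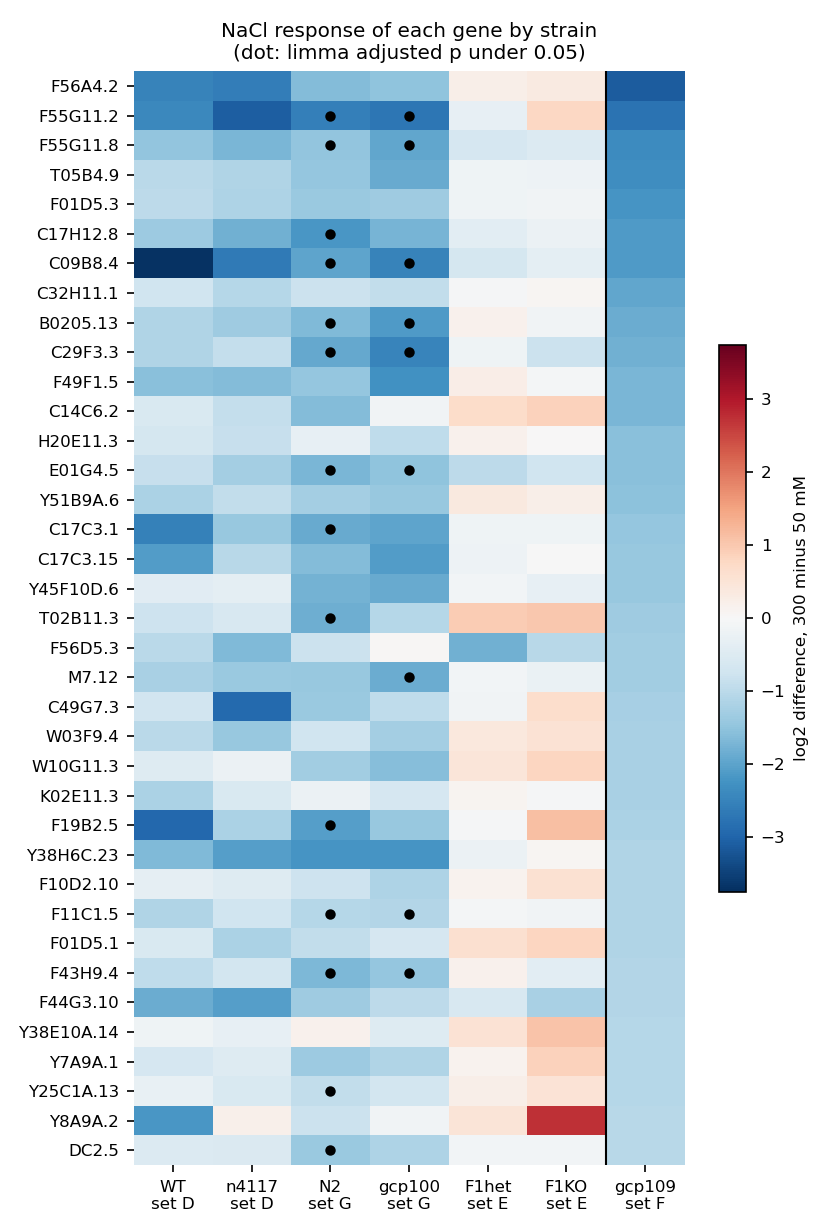
Log2 difference of mean log2(TPM + 1) at 300 minus 50 mM maternal NaCl for each of the 37 genes (rows, ordered by the gcp109 difference) in each strain (columns). Blue is lower at 300 mM and red is higher, and a black dot marks an adjusted p under 0.05 in limma. The gcp109 column, right of the line, chose the genes and carries no dots. The 4 columns of sets D and G are nearly all blue, and the 2 columns of set E are pale or mixed.

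In the 2 strains of set G, libraries that the choice did not use, 36 of the 37 genes had a lower mean at 300 mM in each strain. In N2, 14 of 37 (37.8%) passed the test as lower, where 2.17% of all 15275 genes tested did, and the median log2 difference of the 37 was -1.41 against -0.16 over all genes tested. In hrg-1(gcp100), 9 of 37 (24.3%) passed, where 0.36% of all genes did, with medians of -1.42 and -0.15. No member passed as higher in either strain, where 2.13% and 0.262% of all genes did. The 8 genes called in both strains, B0205.13, C09B8.4, C29F3.3, E01G4.5, F11C1.5, F43H9.4, F55G11.2 and F55G11.8, are 57.1% of the N2 calls and 88.9% of the gcp100 calls. C17C3.1, C17H12.8, DC2.5, F19B2.5, T02B11.3 and Y25C1A.13 were called in N2 without being called in gcp100, and M7.12 the other way round. These 7 are not shown to differ between the strains: for no member did the difference of the 2 responses pass the test. The remaining 22 genes passed in neither strain. Calls were made by limma on log2(TPM + 1) and p-values were adjusted by Benjamini-Hochberg across the table, with calls made under 0.05. Without the 5 doubtful libraries, 22 members were called in N2, where 553 of all 14664 genes tested were called lower, and 7 in gcp100, where 32 were. Of the calls above, 12 of 14 then held in N2, without DC2.5 and F19B2.5, and 4 of 9 in gcp100, without C09B8.4, E01G4.5, F11C1.5, F55G11.8 and M7.12. With 7 sperm-rich libraries left out, which leaves 2 libraries of N2 and 1 of gcp100 at 300 mM, 11 were called in N2, where 232 of 14418 genes were called lower, and 0 in gcp100, where 0 were. In gcp100, 18 members and 352 of all genes were then lower at an unadjusted p under 0.05, with limma. Of the 14 N2 calls 5 then held (C17H12.8, C29F3.3, E01G4.5, F43H9.4 and F55G11.2) and 9 ended, and the 9 calls of gcp100 all ended. Single libraries also moved these counts: without replicate 1, 2, 3 or 5 of N2 at 50 mM, 5, 9, 9 and 7 members were called in N2, and 8 without replicate 5 at 300 mM. In gcp100, 3, 3 and 4 were called without replicates 1, 2 and 5 at 50 mM, and 5, 4 and 5 without replicates 1, 3 and 5 at 300 mM. How many of all genes passed in these fits is not given here, so the shifts may not be particular to the members. F55G11.2, C29F3.3, E01G4.5 and F43H9.4 in N2 and F55G11.2, B0205.13 and C29F3.3 in gcp100 passed whichever single library was left out.

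F55G11.2 and F55G11.8 lie on chromosome IV of WBcel235, at 12967445 to 12969289 on the minus strand and at 12962808 to 12964645 on the plus strand, with dod-22 between them. The name dod stands for downstream of DAF-16, a transcription factor of insulin signalling. F55G11.2 was at 65.5, 30.9, 102.9, 44.1 and 71.2 TPM in N2 at 50 mM and at 6.06, 9.71, 4.77, 12.85 and 15.67 TPM at 300 mM. In gcp100 it was at 61.5, 36.5, 134.8, 38.6 and 40.4 TPM at 50 mM and at 3.28, 4.83, 21.9, 12.82 and 4.67 TPM at 300 mM. All 300 mM libraries of both strains lay below all 50 mM libraries. The log2 difference was -2.56 (SE 0.46, limma adjusted p = 0.00378) in N2 and -2.70 (SE 0.46, limma adjusted p = 0.00911) in gcp100, the largest fall of the 37 genes in both strains.

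F55G11.8 had a mean of 30.1 ± 13.003 TPM (SD, n = 5) in N2 at 50 mM and of 10.1 ± 3.99 TPM (SD, n = 5) at 300 mM, with no overlap. In gcp100 the means were 29.3 ± 11.79 and 7.14 ± 3.17 TPM (SD, n = 5 each), again with no overlap. The log2 differences were -1.47 (SE 0.40) and -1.96 (SE 0.40). Between these 2 genes, dod-22 had 13.8 ± 8.08 TPM at 50 mM and 5.64 ± 10.6 TPM at 300 mM in N2 (SD, n = 5 each), where 1 library of 24.6 TPM at 300 mM lay within the range of the 50 mM group. Another gene of this clone, F55G11.7, had met the other criteria in gcp109 and was left out for its mean of 4.11 TPM.

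C09B8.4, on the X chromosome, and C29F3.3, on chromosome V, had the next largest falls among the genes called in both strains. C09B8.4 was at 26.8, 15.8, 6.48, 6.11 and 14.6 TPM in N2 at 50 mM and at 3.16, 2.61, 1.01, 1.34 and 4.61 TPM at 300 mM, a log2 difference of -1.99 (SE 0.51, limma adjusted p = 0.0313). Its difference was -2.52 (SE 0.51) in gcp100. C29F3.3 was at 6.49, 4.95, 9.82, 5.12 and 6.99 TPM in N2 at 50 mM and at 0.51, 1.89, 0.82, 2.79 and 0 TPM at 300 mM. Its groups did not overlap in either strain, and the log2 differences were -1.92 (SE 0.40, limma adjusted p = 0.0106) and -2.47 (SE 0.40, limma adjusted p = 0.00582). B0205.13, the 1 member on chromosome I, fell from 5.94 ± 2.14 to 1.31 ± 0.913 TPM in N2 and from 10.4 ± 4.93 to 1.40 ± 0.36 TPM in gcp100 (SD, n = 5 each), with no overlap in either.

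E01G4.5 on chromosome II was at 22.9, 34.4, 23.3, 20.5 and 18.4 TPM in N2 at 50 mM and at 11.25, 8.84, 5.41, 5.91 and 3.16 TPM at 300 mM. The log2 difference was -1.72 (SE 0.31, limma adjusted p = 0.00374) in N2 and -1.51 (SE 0.31, limma adjusted p = 0.0294) in gcp100. It alone of the 37 had every 300 mM library below every 50 mM library in each of the 6 strains that did not choose it. How many of all genes did so is not given here. F43H9.4, with the highest 50 mM mean of the genes called in N2, fell from 127.4 ± 22.9 to 41.9 ± 17.3 TPM in N2 and from 128.7 ± 15.7 to 51 ± 22.6 TPM in gcp100 (SD, n = 5 each). The log2 differences of F43H9.4 were -1.68 (SE 0.32) and -1.46 (SE 0.32).

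Among the 5 genes with a newer symbol, F11C1.5 passed the test in both strains of set G. It is now vwa-8, a von Willebrand factor A domain protein, on the X chromosome. Its mean fell from 81.03 ± 22.6 to 37.98 ± 8.52 TPM in N2 and from 86.0 ± 25.8 to 38.2 ± 6.21 TPM in gcp100 (SD, n = 5 each), log2 differences of -1.06 (SE 0.24, limma adjusted p = 0.0158) and -1.11 (SE 0.24, limma adjusted p = 0.0353). The other 4 did not pass in either strain. C49G7.3, now phat-7, belongs to a family of pharyngeal gland toxin-related genes, and its log2 differences were -1.41 (SE 0.72) and -0.97 (SE 0.72). C32H11.1, now irg-6, an infection response gene, had -0.81 (SE 0.46) and -0.93 (SE 0.46), and F44G3.10, now clc-11, of the claudin-like family of membrane proteins, had -1.32 (SE 0.46) and -0.99 (SE 0.46).

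The summed level of 8 pharynx markers, all 8 of them found, was lower at 300 mM without overlap in set D, and the exposures overlapped in the other sets. In set D it was 1068 and 2070 TPM in WT at 50 mM against 544 and 752 TPM at 300 mM, and 886 and 963 against 127 and 498 TPM in n4117. It was 568 to 2318 TPM in N2 at 50 mM against 211 to 1776 TPM at 300 mM, with overlap, and 350 to 2317 against 170 to 1948 TPM in gcp100. In gcp109, where the genes were chosen, it was 1465 to 2019 TPM at 50 mM and 1177 to 1913 TPM at 300 mM. The median sum in set E went from 901 to 613 TPM in F1het and rose from 310 to 721 TPM in F1KO, with overlap in both. phat-7 was at 3.50 TPM in the n4117 library with the lowest pharynx sum and at 23.2 TPM in the other n4117 library at 300 mM. Hypodermis markers, 10 of 10 found, went from 204 and 237 TPM to 442 and 446 TPM in WT. In N2 they went from 161 to 340 TPM to 283 to 1629 TPM, with overlap, and the 1629 TPM was that of the doubtful replicate 3. Their medians also rose in n4117 (198 to 384 TPM), gcp100 (248 to 424 TPM) and gcp109 (231 to 318 TPM). In set E their medians were lower at 300 mM, from 158 to 129 TPM in F1het and from 165 to 125 TPM in F1KO. The part of these markers in the results was not tested.

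F56A4.2, F49F1.5 and C14C6.2, among the genes with the largest falls in gcp109, showed how the doubtful libraries spread some members. F56A4.2 was at 1.54, 2.55, 84.4, 1.21 and 5.80 TPM in N2 at 300 mM against 11.6 to 37.6 TPM at 50 mM, and at 51.8, 2.23, 0, 1.14 and 27.4 TPM in gcp100 at 300 mM against 7.95 to 38.1 TPM at 50 mM. The high values were those of replicate 3 of N2 and replicates 1 and 5 of gcp100, whose sperm marker sums were 4628, 1461 and 193.7 TPM. Its log2 difference of -1.63 (SE 1.00) in N2 did not pass. F49F1.5 reached 42.7 TPM and C14C6.2 33.9 TPM in replicate 3 of N2 at 300 mM, above every 50 mM library of N2, and the other 4 libraries of that group were at 0 to 6.82 TPM and 0 to 2.73 TPM. The part of the sperm markers in these values was not tested. T05B4.9, also among the 12 largest falls in gcp109, was at 0.68 to 7.88 TPM in N2 at 50 mM and 0 to 0.54 TPM at 300 mM, and its log2 differences of -1.44 (SE 0.48) in N2 and -1.90 (SE 0.48) in gcp100 did not pass.

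Other members were called in 1 strain of set G. In N2 the log2 difference of C17C3.1 was -1.89 (SE 0.47, limma adjusted p = 0.0275), that of C17H12.8 -2.17 (SE 0.59), that of F19B2.5 -2.07 (SE 0.55) and that of T02B11.3 -1.84 (SE 0.40). M7.12 had a log2 difference of -1.85 (SE 0.41) in gcp100, where its library of 0.88 TPM stood apart from the other 4 of 6.69 to 12.1 TPM. F19B2.5 spread widely between replicates at 50 mM, from 20.6 to 199.2 TPM in N2. C17C3.1 and C17C3.15 overlap on the same strand of chromosome II and share exons, so their reads could not be assigned to 1 of them with certainty.

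**Figure D2:**
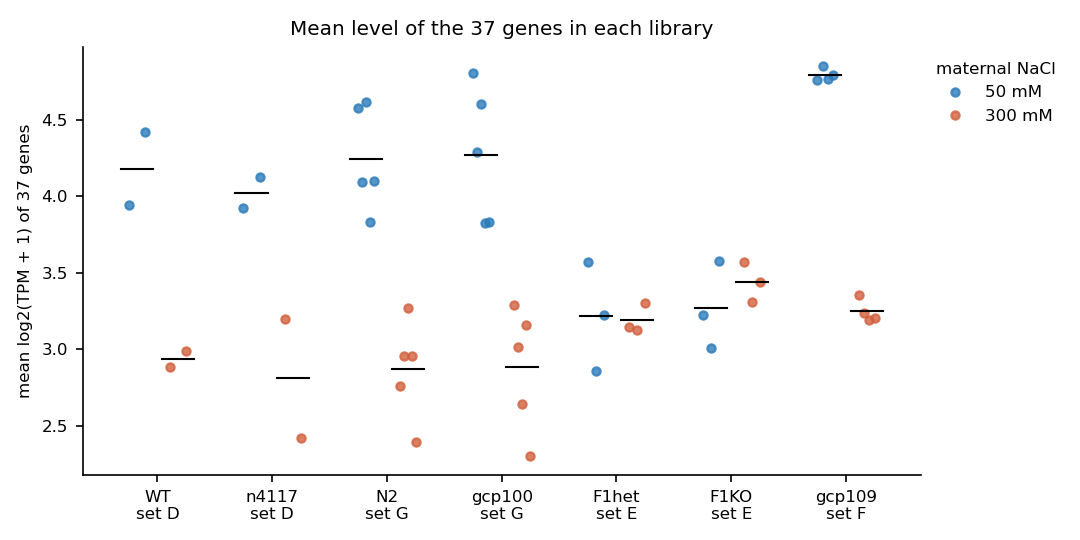
Mean of log2(TPM + 1) over the 37 genes in each library (points) by strain and maternal NaCl, with the group mean as a bar. In sets D and G every 300 mM library lies below every 50 mM library of its strain. The same separation in set F was fixed by the choice of the genes. In set E the 2 exposures overlap, at 2.86 to 3.57 and 3.13 to 3.57.

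Averaged over the 37 genes in each library, the mean log2(TPM + 1) in N2 was 3.83 to 4.61 at 50 mM and 2.40 to 3.27 at 300 mM. In gcp100 it was 3.83 to 4.81 and 2.31 to 3.29. The doubtful libraries lay at both ends of the 300 mM range, with 3.27 in replicate 3 and 2.40 in replicate 5 of N2. In gcp109, which chose the genes, it was 4.76 to 4.85 and 3.19 to 3.36.

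In set D, with 2 libraries per group, no member passed the test in WT or in n4117. In this set 0% of all 14969 genes tested were called lower in WT and 0.0267% in n4117, where 0.02% were called higher. All 37 members had a lower mean at 300 mM in WT and 36 in n4117, 21 and 20 of them at an unadjusted p under 0.05, with limma, where 495 and 433 of all genes were lower. The median log2 difference of the members was -1.01 in WT and -1.13 in n4117, against 0.09 and 0.16 over all genes tested. Rescaling the libraries to a common median brought the last value to 0.01 and the members' median in n4117 to -1.19. C09B8.4 had the lowest log2 difference in WT, with libraries of 56.8 and 40.7 TPM at 50 mM and of 5.6 and 1.18 TPM at 300 mM. The difference was -3.69 (SE 0.64, limma adjusted p = 0.199). F55G11.2 had the lowest in n4117, from 36.05 and 84.4 TPM to 7.04 and 4.35 TPM, a difference of -3.10 (SE 0.59, limma adjusted p = 0.195). clc-11 (F44G3.10) had the smallest p of the members in both, with 25.8 and 25.8 TPM at 50 mM and 7.11 and 5.6 TPM at 300 mM in WT (limma adjusted p = 0.168). Without replicate 1 of n4117 at 300 mM, which leaves 1 library assumed to vary like the others, phat-7 (C49G7.3, -4.13, limma adjusted p = 0.0319) and clc-11 (F44G3.10, -2.38, limma adjusted p = 0.0477) passed as lower in n4117. phat-7 then also passed as lower in n4117 than in WT at 300 mM (-3.91).

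Groups did not overlap, with every 300 mM library below every 50 mM library, for 30 of the 37 genes in WT, 27 in n4117, 17 in N2 and 19 in gcp100. The shares of all genes tested were 13.31%, 11.36%, 4.62% and 2.38%. For 12 members this held in all 4 strains, against 0.733% of the 14464 genes tested in both sets. These 12 were the 8 genes called in both strains of set G, with C17C3.1, M7.12, DC2.5 and Y38H6C.23. Y38H6C.23 was the 1 of them that passed in neither strain, with log2 differences of -2.22 (SE 0.67, limma adjusted p = 0.0648) in N2 and -2.21 (SE 0.67, limma adjusted p = 0.162) in gcp100. For C14C6.2, W10G11.3 and F01D5.1 the 300 mM libraries did not all lie below the 50 mM libraries in any of the 6 strains that did not choose them. In F1KO those of W10G11.3 all lay above. The share of all genes without such a separation in any of the 6 strains is not given here.

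The strains of a set were also compared with each other. No member differed between n4117 and WT, between F1KO and F1het or between gcp100 and N2 at either exposure, and for no member did the NaCl responses of the 2 strains of a set differ, at a limma adjusted p under 0.05. At an unadjusted p under 0.05, 1 member was lower in n4117 at 50 mM and 2 at 300 mM, 1 was lower and 1 higher in F1KO at each exposure, 1 was lower in gcp100 at 300 mM, and 1 NaCl response was lower in F1KO. By the same measure 106 and 221 of all genes were lower in n4117 at 50 and 300 mM. In F1KO 239 were lower and 246 higher at 50 mM, and 256 and 618 at 300 mM. At 300 mM 615 were lower in gcp100, and 100 NaCl responses were lower in F1KO. Of all genes tested, 0.0134% were called lower in n4117 at each exposure and 0.00668% higher at 300 mM. In F1KO 0.0129% were lower and 0.00647% higher at 50 mM, and 0.00647% lower and 0.0129% higher at 300 mM. The other of these comparisons called 0%. For F55G11.2 the response in gcp100 minus that in N2 was -0.14 (SE 0.66), and for E01G4.5 it was 0.21 (SE 0.44), both on the log2 scale. Over the members this difference ran from -0.82 to 1.48 with a median of -0.10.

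**Figure D3:**
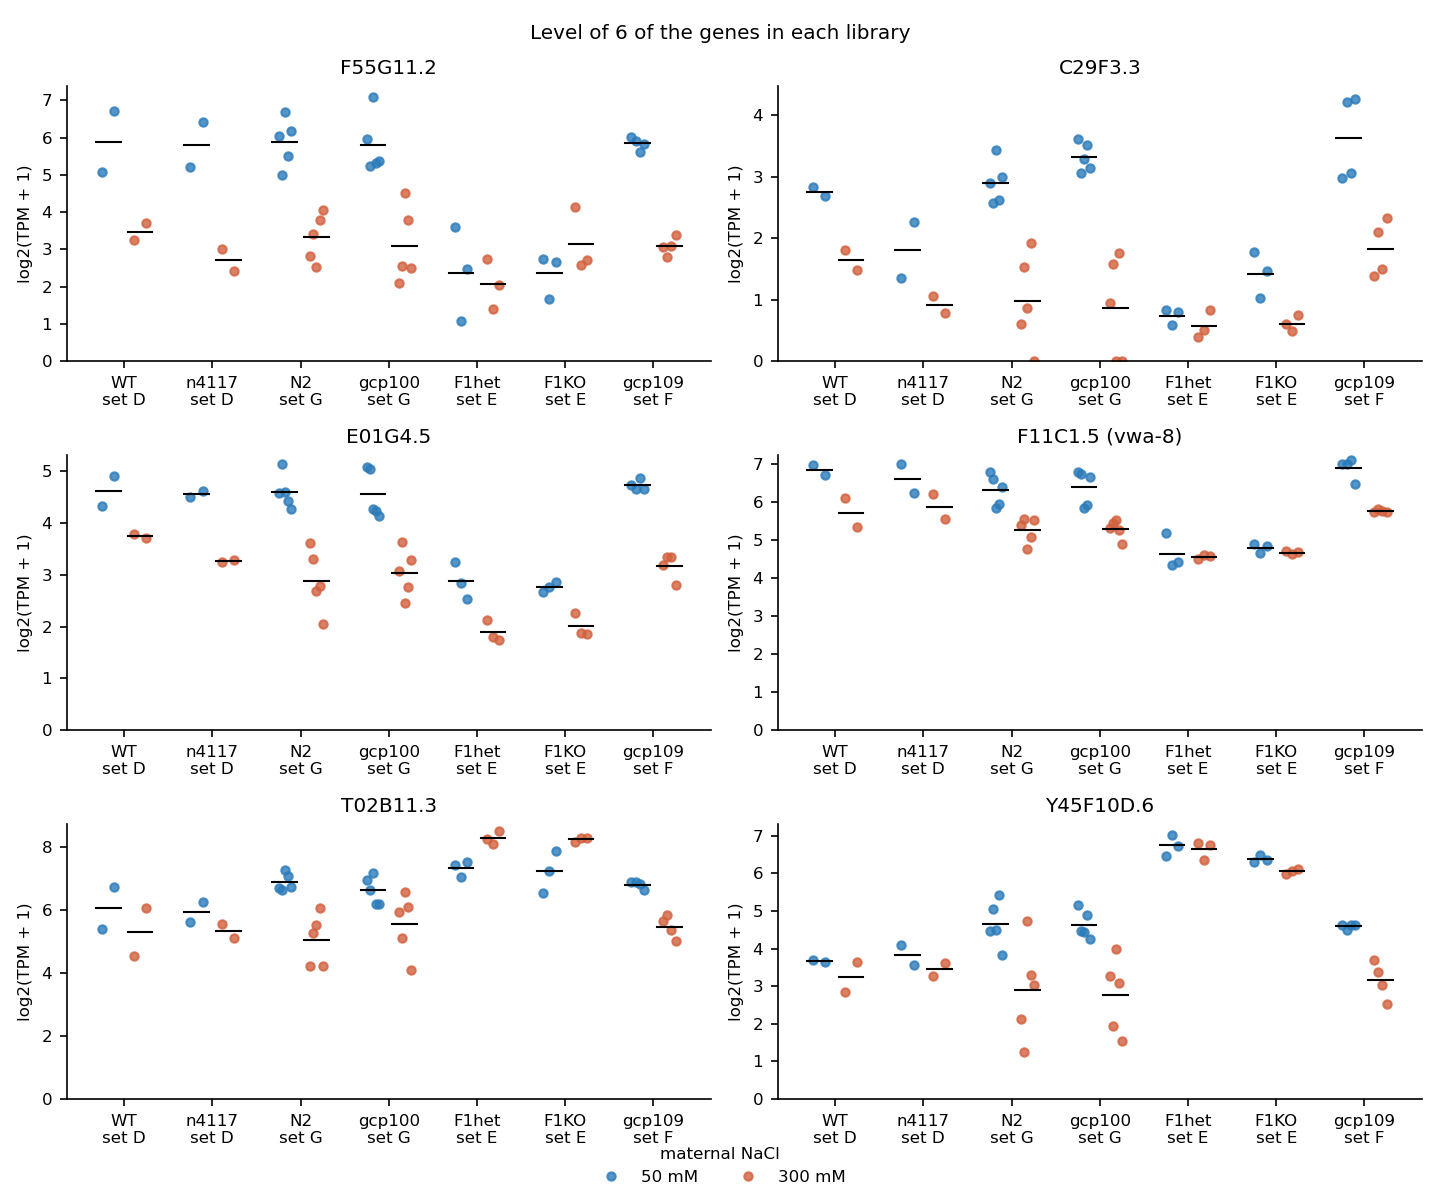
Level of 6 of the genes as log2(TPM + 1) in each library (points), by strain and maternal NaCl, with the group mean of log2(TPM + 1) as a bar. The first 4 genes were called lower at 300 mM in both strains of set G, and T02B11.3 in N2. In set E, F55G11.2, C29F3.3, E01G4.5 and F11C1.5 are low already at 50 mM, and T02B11.3 and Y45F10D.6 are high at both exposures.

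In set E no member passed the test for a NaCl response, in a fit that did not pair the libraries. Of the 37 genes 33 passed the filter on low values, 0 of them were called lower or higher in F1het or in F1KO, and 18 of the 33 had a lower mean at 300 mM in each genotype. At an unadjusted p under 0.05, with limma, 2 were lower and 1 higher in F1het, where 1064 of all 15453 genes were lower and 693 higher, and 4 were lower and 5 higher in F1KO, where 850 and 978 were. Of all 15453 genes tested, 0.00647% were called lower in each genotype, and 0% and 0.0194% higher. The median log2 difference of the members tested was -0.08 in F1het and -0.05 in F1KO. Over all 37 genes, 15 had a lower and 13 a higher mean at 300 mM in both genotypes, and 9 had opposite signs. Every 300 mM library lay below every 50 mM library for 2 of the 37 genes in F1het and 4 in F1KO, where 7.86% and 8.21% of all genes tested did, and above for 1 and 5, where 5.94% and 11.19% did.

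E01G4.5 was at 8.53, 6.17 and 4.80 TPM in F1het at 50 mM and at 3.39, 2.49 and 2.35 TPM at 300 mM. In F1KO it was at 5.34, 5.75 and 6.24 TPM and at 3.80, 2.68 and 2.64 TPM. The groups did not overlap in either genotype, with log2 differences of -0.98 (SE 0.20, limma adjusted p = 0.151) and -0.76 (SE 0.20, limma adjusted p = 0.239). With the replicate number as a block the F1het difference passed (limma adjusted p = 0.0381), in a fit that called 116 of all 15453 genes lower in F1het against 1 without the block, and with the block kept within each genotype it did not (limma adjusted p = 0.0535).

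T02B11.3 went the other way in set E, although it was called lower in N2. It was at 174.1, 130.7 and 184.4 TPM in F1het at 50 mM and at 308.4, 276.2 and 365.5 TPM at 300 mM. In F1KO it was at 93.3, 152.1 and 234.4 TPM and at 284.4, 313.9 and 312.1 TPM. All 300 mM libraries lay above all 50 mM libraries in both genotypes, with log2 differences of 0.96 (SE 0.27, limma adjusted p = 0.250) and 1.02 (SE 0.27, limma adjusted p = 0.247) that did not pass. Without replicate 3 of F1KO at 50 mM the F1KO value was 1.34 and passed (limma adjusted p = 0.0479).

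The NaCl response of set E was set against that of the 4 strains of sets D and G in 1 fit over all 48 libraries. This comparison was added after the values had been seen. The gcp109 libraries entered its estimate of the spread, and the rule asked that their groups not overlap. Standard errors of the members may thus be too small beside those of all genes. The response was higher in set E for 11 of the 37 genes and lower for 0, where 0.765% and 0.853% of all 19352 genes tested were called higher and lower. These were B0205.13, C09B8.4, C17C3.1, F11C1.5, F19B2.5, F43H9.4, F55G11.2, T02B11.3, W03F9.4, Y25C1A.13 and Y51B9A.6. The largest differences of responses were 2.93 (SE 0.51, limma adjusted p = 0.000815) for F55G11.2 and 2.44 (SE 0.57, limma adjusted p = 0.0151) for F19B2.5. Against set G alone 19 members were called higher and 0 lower, where 2.07% and 1.49% of all genes were. Against set D alone 2 were higher and 0 lower, where 0.093% and 0.114% were. Without the 5 doubtful libraries 22 were higher against both sets, and the count over all genes in that fit is not given here.

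The level at 50 mM, by the same fit and with its limit, differed as well. In set E 23 of the 37 genes (62.2%) were lower at 50 mM than in sets D and G, where 11.7% of all genes tested were, and 3 were higher, where 12.2% were. F55G11.2 was at 11.05, 1.09 and 4.53 TPM in F1het and at 5.69, 2.17 and 5.35 TPM in F1KO at 50 mM, below the lowest 50 mM library of sets D and G, which had 30.9 TPM. Its mean over the 2 genotypes was 4.98 TPM. That lay below the mean of 8.80 TPM that the strains of sets D and G had at 300 mM. The same held on the log2 scale for 16 of the 37 genes. The share of all genes for which this held is not given here, so the count may not be particular to the members. The log2 differences in level at 50 mM, set E minus sets D and G, were -3.48 (SE 0.36) for F55G11.2, -3.04 (SE 0.40) for F19B2.5, -3.03 (SE 0.35) for C09B8.4 and -1.82 (SE 0.17) for vwa-8.

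Y45F10D.6, T02B11.3 and W10G11.3 were the 3 genes higher in set E at 50 mM. Y45F10D.6 was at 87.5, 129.1 and 105.7 TPM in F1het and at 77.5, 88.0 and 80.9 TPM in F1KO, against 10.8 to 42.3 TPM in the 50 mM libraries of sets D and G. Its exons overlap those of Y45F10D.7 on the opposite strand, and whether the counting used strand is not given in the sources used here. At 300 mM, 4 members were lower in set E (E01G4.5, F44G3.10, F11C1.5 and F10D2.10), where 12.3% of all genes were, and 10 were higher, where 11.6% were. The median level difference of the 37 genes was -1.13 at 50 mM and -0.03 at 300 mM on the log2 scale. Set E differs from the others in strain, in the balancer of the mothers and in its experiment, and these cannot be told apart. The lines of the sets also stood in different orders in the table, so levels set across them may carry a difference in processing.

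**Figure D4:**
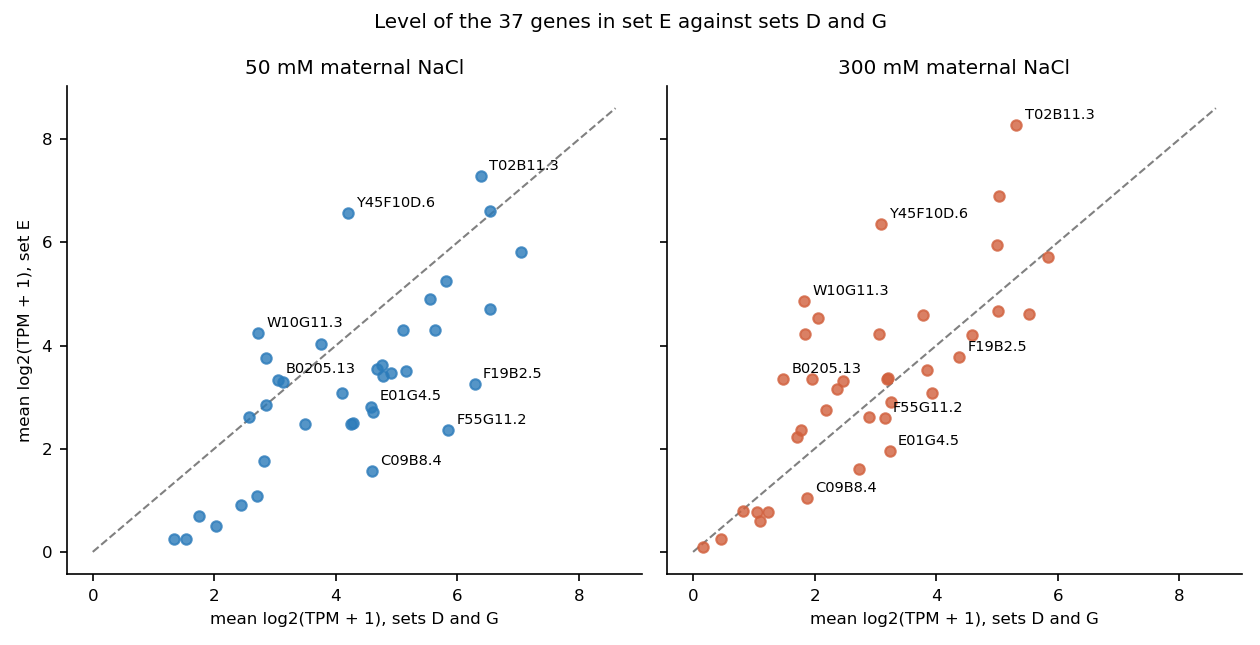
Mean log2(TPM + 1) of each of the 37 genes in set E against its mean over the 4 strains of sets D and G, at 50 mM (left) and at 300 mM (right) maternal NaCl, with the line of equal level dashed. At 50 mM 28 of the 37 genes lie below the line, and at 300 mM 19 do. F55G11.2, F19B2.5 and C09B8.4 lie farthest below it at 50 mM.

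Marker sums were also compared between sets, and their ranges overlapped. Intestine markers, 11 of 11 found, summed to 3220 to 4493 TPM in the 50 mM libraries of set E and to 2470 to 7543 TPM in those of sets D and G. Pharynx markers summed to 204 to 1026 TPM in the 50 mM libraries of set E and to 350 to 2318 TPM in those of sets D and G. Their part in the level difference was not tested.

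Lists of related genes were read beside the members, and 2 of them share members with the 37. The first held the 5 dod genes dod-17, dod-19, dod-21, dod-22 and dod-24 and 12 genes with sequence names, of which C17H12.8, C32H11.1, F55G11.2 and F55G11.8 are members. In N2, 5 of its 15 genes tested passed as lower and 1 as higher, and in gcp100 4 and 0, with a median log2 difference of -0.81 in N2. Of the 11 that are no members, dod-24 and F08G5.6 passed as lower in both strains and F35E12.5 as higher in N2, and their median log2 difference was -0.16 in N2 and -0.47 in gcp100, against -0.16 and -0.15 over all genes tested. It was -0.63 in WT and -0.98 in n4117, against 0.09 and 0.16, and -0.20 in F1het and -0.12 in F1KO, against -0.03 and 0.03. dod-24 was at 57.7 ± 27.2 TPM in N2 at 50 mM and at 9.11 ± 7.38 TPM at 300 mM (SD, n = 5 each). In set E it was at 19.8 ± 8.49 TPM in F1het at 50 mM and at 14.8 ± 3.25 TPM at 300 mM (SD, n = 3 each). Both means lay between those of N2 at 300 and at 50 mM.

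Of the infection response list, 19 of 20 genes found were tested in set G, of which C17H12.8 is a member. In N2 4 passed as lower (C17H12.8, dod-24, F08G5.6 and T24B8.5) and 1 as higher (F35E12.5), and in gcp100 2 as lower (dod-24 and F08G5.6), with medians of -0.78 and -0.75. All of these genes but T24B8.5 are also in the first list, so their calls are the ones given there. Of 15 genes of the unfolded protein response in the endoplasmic reticulum, pek-1, a kinase that senses unfolded proteins, passed as lower in both strains and xbp-1, a transcription factor of that response, in N2, with a median of 0.11 in N2. Of the osmotic response list, 12 of 14 genes were tested and tps-2, an enzyme of trehalose synthesis, passed as lower in N2 and none in gcp100. No gene of the 4 lists passed in set E or in WT, and in n4117 dod-24, F08G5.6 and T24B8.5 passed as lower. F08G5.6 and T24B8.5 are the genes that the rule left out.

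The members were spread unevenly over the chromosomes of WBcel235. Chromosome V held 14 of them (37.8%), II and IV 10 each (27%), X 2, I 1 and III 0. Of the 4384 sequence-named genes at the same gcp109 level with a position, 19.4% lay on V, 16.8% on II, 16.6% on IV, 15.5% on X, 16% on I and 15.7% on III. Within 10 kb of each other lay 4 pairs, 8 genes in all. Besides the F55G11 and C17C3 pairs these were F01D5.3 and F01D5.1 on chromosome II, 1477 bases apart with F01D5.2 between them, and C17H12.8 and H20E11.3 on chromosome IV, 4240 bases apart. The genes of the C17C3 pair share exons. The share of all sequence-named genes with such a neighbour is not given here, so closeness may not be particular to the members.

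The genes of the F01D5 pair and of the C17H12.8 and H20E11.3 pair differed in level. In N2, F01D5.3 was at 2.56 to 10.3 TPM at 50 mM and 0 to 3.22 TPM at 300 mM, and F01D5.1 at 48.9 to 103.5 and 19.5 to 54.2 TPM. C17H12.8 was at 41.7 to 99.9 and 1.86 to 74.55 TPM, and H20E11.3 at 1.62 to 6.07 and 0.37 to 7.50 TPM. C17H12.6, between the last 2, was at 2.51 to 10.0 and 0 to 4.88 TPM. The annotation also has F01D5.3 sharing exon bases with F01D5.2 on the same strand, C14C6.2 with sri-73 and F56D5.3 with F56D5.2 on opposite strands, and values of these genes are uncertain to that extent. The exons of the members covered 425 to 5598 bases, with a median of 1066.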

How the data were processed

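Per the labels' protocols, RNA longer than small RNA was treated with DNase, depleted of ribosomal RNA by RNase H and made into strand-specific libraries. The authors deposited 1 table of TPM for 48 of the 68 samples, and the other 20 are not analysed here. The submitters' processing notes name ce11, WBcel235 and bedtools, and no source used here names the aligner, the counter or its use of strand. TPM columns summed to 953862 to 999109, which leaves the depth of the libraries unknown, and 0 means that a gene is listed at 0.

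The columns of set G and of part of set E stood beside the wrong gene names, displaced by lines missing or ordered differently. They were moved back by name before any test, 20693 lines in set G (25 of the 37 genes) and 1119 in set E (5 of the 37 genes). Correlations over genes between sets D and G rose from 0.591 to 0.992 and between D and E from 0.950 to 0.973. The correction of set E was chosen after the data were examined.

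Each set was fitted on its own by limma (version 3.58.1, R version 4.3.3) with an intensity trend on log2(TPM + 1), which understates changes of low genes. A gene was tested if it reached 1 TPM in a number of libraries equal to the smallest group size, and two-sided p-values were adjusted by Benjamini-Hochberg over all of them with a threshold of 0.05. The procedure was tested on simulated data. Genes were named by the size of their gcp109 difference and by their calls. Y45F10D.6, W10G11.3, Y38H6C.23 and other genes described for a pattern were chosen after their values were seen. The members and the lists were chosen with earlier results of these data known. Alternatives were other pseudocounts, no filter, rescaled libraries, no trend, a replicate block and leaving out libraries.

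Replicate numbers of the 2 exposures deviated together within each genotype of set E (every r at least 0.147) and in gcp109 (0.562 to 0.630). These libraries may thus be paired. The main fits used no block, so their p-values leave out such pairing, and fits with the replicate number as a block were run as alternatives. N2 and gcp100 libraries of the same number also deviated together at 50 mM (0.387 to 0.692), and 0 members were called between these groups with or without the block.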

Additional observations from a re-analysis of the deposited data

Results flagged for a closer look

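Of 72 groups of 4 or 5 libraries tested for a single library far from the others, 3 held one, and chance gives about 1 in 20. F55G11.8 was at 1.56 TPM in replicate 5 of gcp100 at 300 mM, below the other 4. C32H11.1 (irg-6) was at 2.57 TPM in replicate 5 of N2 at 300 mM, above the other 4. M7.12 was at 0.88 TPM in replicate 3 of gcp100 at 300 mM, below the other 4. All 3 are libraries with fewer genes of at least 1 TPM.

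For 11 genes the NaCl response of set E differed from that of sets D and G, by the test of the difference in 1 limma fit. Its estimate of the spread included the gcp109 libraries. The log2 differences of responses were 2.93 for F55G11.2, 2.44 for F19B2.5, 2.20 for C09B8.4, 2.05 for T02B11.3, 1.81 for C17C3.1, 1.57 for B0205.13, 1.57 for W03F9.4, 1.499 for Y51B9A.6, 1.09 for F43H9.4, 0.97 for Y25C1A.13 and 0.90 for F11C1.5 (vwa-8).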

How the results depend on the processing

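No call among the members changed sign under any alternative run. In N2, 9 members were called without the filter on low values and 22 without the 5 doubtful libraries, and in gcp100 4 with a pseudocount of 0.1 and 0 without the sperm-rich libraries. Leaving out 1 library at a time gave 5 to 18 in N2, 3 to 13 in gcp100, 0 to 2 in n4117, and 0 to 1 for n4117 against WT at 300 mM. Without replicate 1 of n4117 at 300 mM, C49G7.3 (-4.13) and F44G3.10 (-2.38) passed in n4117. The members' median log2 difference with pseudocounts of 0.1 and 5 was -1.33 and -0.70 in WT, -1.87 and -0.84 in N2 and -2.0 and -0.88 in gcp100. It was -0.67 in n4117 with 5, and -0.98 in gcp100 without the sperm-rich libraries. With 1 library left out it ran from -1.295 to -0.91 in WT and from -0.16 to 0.19 in F1het. Without the doubtful libraries 22 members had a higher response in set E than in sets D and G, and 9 were lower in set E at 300 mM, or 7 with its lines as deposited. The cause of these shifts was not tested. Counts over all genes in these fits are not given here except where stated above, so the shifts may not be particular to the members.

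With the replicate number as a block, 1 member was called lower in F1het, 20 in N2, 12 in gcp100 and 0 in WT, n4117 and F1KO, where 116, 634, 136, 0, 2 and 154 of all genes tested were. Between the exposures of set G the correlations of same-numbered libraries were 0.0278 to 0.272 in N2 and -0.0452 to 0.377 in gcp100. Libraries of different numbers were not compared, so whether those of set G are paired is not known. Set D had 2 pairs. The block changed no call of a member between genotypes. The planned comparisons of the samples without columns were not run. Depth is unknown, so what it limits cannot be given.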
